A study of Mus musculus with 18 samples.

Results

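High-grade dysplasia taken from mouse colon 8 weeks after azoxymethane (AOM) was compared, gene by gene, with colon mucosa taken 2 weeks after AOM, at the end of an acute bout of colitis. The comparison uses the 3 arrays labelled as high-grade dysplasia at 8 weeks and the 3 labelled as inflamed mucosa at 2 weeks, 6 of the 18 arrays of the series. They were picked by their labels and not by any measured value. Both stages lie close to a period of dextran sulfate sodium (DSS) in the drinking water, one without a lesion and the other with one.

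The series follows the AOM/DSS model of colitis-associated colorectal cancer in outbred ICR mice, all males that were 6 weeks old at the start, with 6 groups of 3 Affymetrix arrays from normal mucosa to carcinoma. AOM, a procarcinogen that alkylates DNA, was injected into the peritoneum once at 10 mg per kg on day 1 in both groups compared here. The mucosa was taken on day 14, the last day of a first DSS cycle (2%, days 8 to 14). The dysplasia was taken on day 56, 2 days after the last of 3 cycles (1.5%, days 50 to 54), which followed the first and a second cycle (1.5%, days 29 to 33). Normal mucosa, used below as the background level, came on day 14 from mice given saline and plain water. No group received AOM or DSS alone. Age, the number of DSS cycles, the DSS concentration, the days since DSS ended and the lesion itself change together between the groups and cannot be told apart. The labels call the samples biological replicates without saying whether each came from its own mouse.

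DSS strips the epithelial lining of the colon, and the exposed wall fills with neutrophils and monocytes, drawn by chemokines that epithelium, fibroblasts and macrophages make under NF-kB control. Surviving crypt stem cells then rebuild the lining, with Wnt signals from the stroma keeping them in cycle. In tumours of this model mutations that stabilise beta-catenin are common, and a stabilised beta-catenin switches on both the growth genes and the feedback inhibitors of the Wnt pathway.

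Levels are given as log2(signal + 16) and differences as dysplasia minus inflamed mucosa on that scale, with the standard error of a limma fit. This scale understates changes of dim genes. Adjusted p-values are limma's with Benjamini-Hochberg adjustment over the 12877 genes tested, and a gene was called when its adjusted p was under 0.05. A called gene that lost its call when 1 array was left out is given with the arrays concerned and the largest adjusted p of the 6 such fits. Values per array are always listed in the order replicate 1, 2, 3. As these are pieces of tissue, fewer cells of a type and less RNA per cell cannot be told apart.

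Before the comparison is read, 3 arrays need attention. The dysplasia array labelled replicate 1 stood nearer to the inflamed arrays than its partners did. Across the 12877 genes its correlation was 0.927 with inflamed replicate 1, 0.942 with dysplasia replicate 3 and 0.859 with dysplasia replicate 2, while dysplasia replicates 2 and 3 correlated at 0.949. These values are across genes of arrays that share most of their transcripts and are a description only. Its Wnt target genes were near the normal level, as detailed below, so that it is called the array labelled dysplasia replicate 1, and results that rest on it are given with and without it. Dysplasia replicate 2 was low in immune genes. It was below every normal array in 22 of 24 interferon, 10 of 11 B and plasma cell and 8 of 14 NF-kB genes, and above in 1 of each list. In dysplasia replicates 1 and 3 the numbers below were 6 and 6, 0 and 0, and 0 and 1. Inflamed replicate 2 held the least epithelial RNA. The 21 general epithelial genes averaged -1.60, -4.83 and -2.78 relative to normal mucosa in the inflamed arrays and -0.54, -0.52 and -0.41 in the dysplasia. The median SD of a gene over 3 arrays was 0.158 in inflamed mucosa, 0.206 in dysplasia and 0.131 in normal mucosa. Probe sets for 18S ribosomal RNA averaged 8.88, 8.60 and 10.33 in the inflamed arrays and 11.03, 10.79 and 10.63 in the dysplasia, and the part of this in the results was not tested. For Gapdh the 3′ minus 5′ probe set difference lay between -0.04 and 0.15 in the 6 arrays.

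Dysplasia had 2695 genes above inflamed mucosa (20.9% of those tested) and 2370 below it (18.4%), so that 39.3% were called. The median difference over all genes was 0.04. Of the called genes 858 were higher and 1032 lower by at least 2-fold, and 282 were higher and 219 lower by at least 4-fold. All 3 dysplasia arrays lay above all 3 inflamed arrays for 3118 genes (24.2%) and below them for 2666 (20.7%), together 44.9%. Without the array labelled dysplasia replicate 1, 3077 genes were higher and 2455 lower. Of the 5065 calls 4497 were among these, 568 were lost and 1035 genes were called only then. With such a share of all genes called, a list of genes has to be read against 20.9% and 18.4%.

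Among the 15 genes that fell furthest were several made by macrophages and neutrophils. Marco, a scavenger receptor of macrophages, measured 10.64, 10.71 and 11.33 in the inflamed mucosa and 5.42, 5.33 and 5.43 in the dysplasia, a difference of -5.50 ± 0.19, adjusted p = 2.68e-10. The groups were far apart, and each dysplasia array was close to the normal mean of 5.28. Cd163, the haemoglobin scavenger receptor of resident and repair macrophages, measured 10.68, 10.95 and 10.65 in the inflamed mucosa and 5.74, 5.64 and 5.57 in the dysplasia (-5.11 ± 0.38, adjusted p = 1.05e-06). Its dysplasia arrays were all below the normal mean of 7.40. Chil3, a chitinase-like protein of alternatively activated macrophages and neutrophils, measured 12.46, 12.78 and 12.93 in the inflamed mucosa and 11.37, 5.78 and 6.59 in the dysplasia (-4.81 ± 1.43, adjusted p = 0.016), and Ngp, a neutrophil granule protein, measured 11.56, 13.13 and 13.27 in the inflamed mucosa and 10.35, 6.00 and 6.98 in the dysplasia (-4.88 ± 1.33, adjusted p = 0.01). In both genes the array labelled dysplasia replicate 1 stayed close to the inflamed arrays while replicates 2 and 3 were far below, and without it the differences were -6.54 and -6.17. Chil3 was not called without dysplasia replicate 2 or 3 (adjusted p = 0.074). Others among the 15 largest falls were Stfa3 (-4.90 ± 0.85) and Stfa2l1 (-4.23 ± 1.03), stefins of myeloid cells, Chil1 (-4.41 ± 0.61), Cemip (-4.19 ± 0.73), which breaks down hyaluronan, and Dio2 (-4.27 ± 0.83), which activates thyroid hormone.

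The 15 genes that rose furthest included products of secretory crypt cells and junction proteins beside genes of other kinds. Ang4, an antimicrobial ribonuclease of goblet and Paneth cells, measured 6.27, 5.97 and 5.82 in the inflamed mucosa and 10.27, 13.30 and 13.22 in the dysplasia (6.24 ± 0.82, adjusted p = 5.89e-05). The groups did not overlap, and dysplasia replicates 2 and 3 were above the normal mean of 12.61. Cldn2, a pore-forming claudin of crypt cells, measured 5.75, 5.70 and 5.57 in the inflamed mucosa and 9.01, 9.91 and 9.72 in the dysplasia (3.88 ± 0.22, adjusted p = 1.1e-07), with no overlap and a normal mean of 10.43. A second Cldn2 probe set differed by only 0.31. Mt4, a metallothionein, measured 5.47, 5.80 and 5.26 in the inflamed mucosa and 6.09, 13.29 and 12.68 in the dysplasia (5.18 ± 1.38, adjusted p = 0.00866), high in replicates 2 and 3 of the dysplasia only, and the difference was 7.47 without the array labelled dysplasia replicate 1. Defa31, an alpha-defensin whose probe set is marked as able to match related transcripts, differed by 5.25 ± 1.27, and Itln1, an intelectin of goblet and Paneth cells, by 5.44 ± 0.85. Reg4 (5.17 ± 0.68), Spink4 (4.18 ± 0.77), Rdh9 (3.90 ± 0.59), Tmem30b (3.84 ± 0.65), the desmosomal plakin Dsp (3.83 ± 0.80) and Smpx (4.73 ± 0.90) followed. Without inflamed replicate 2 Dsp differed by 2.49. Pnliprp2 (4.37 ± 1.26) was not called without dysplasia replicate 2 or 3 (adjusted p = 0.0679). Defa31, Pnliprp2 and Smpx differed by 7.40, 6.37 and 6.32 without the array labelled dysplasia replicate 1.

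**Figure D1:**
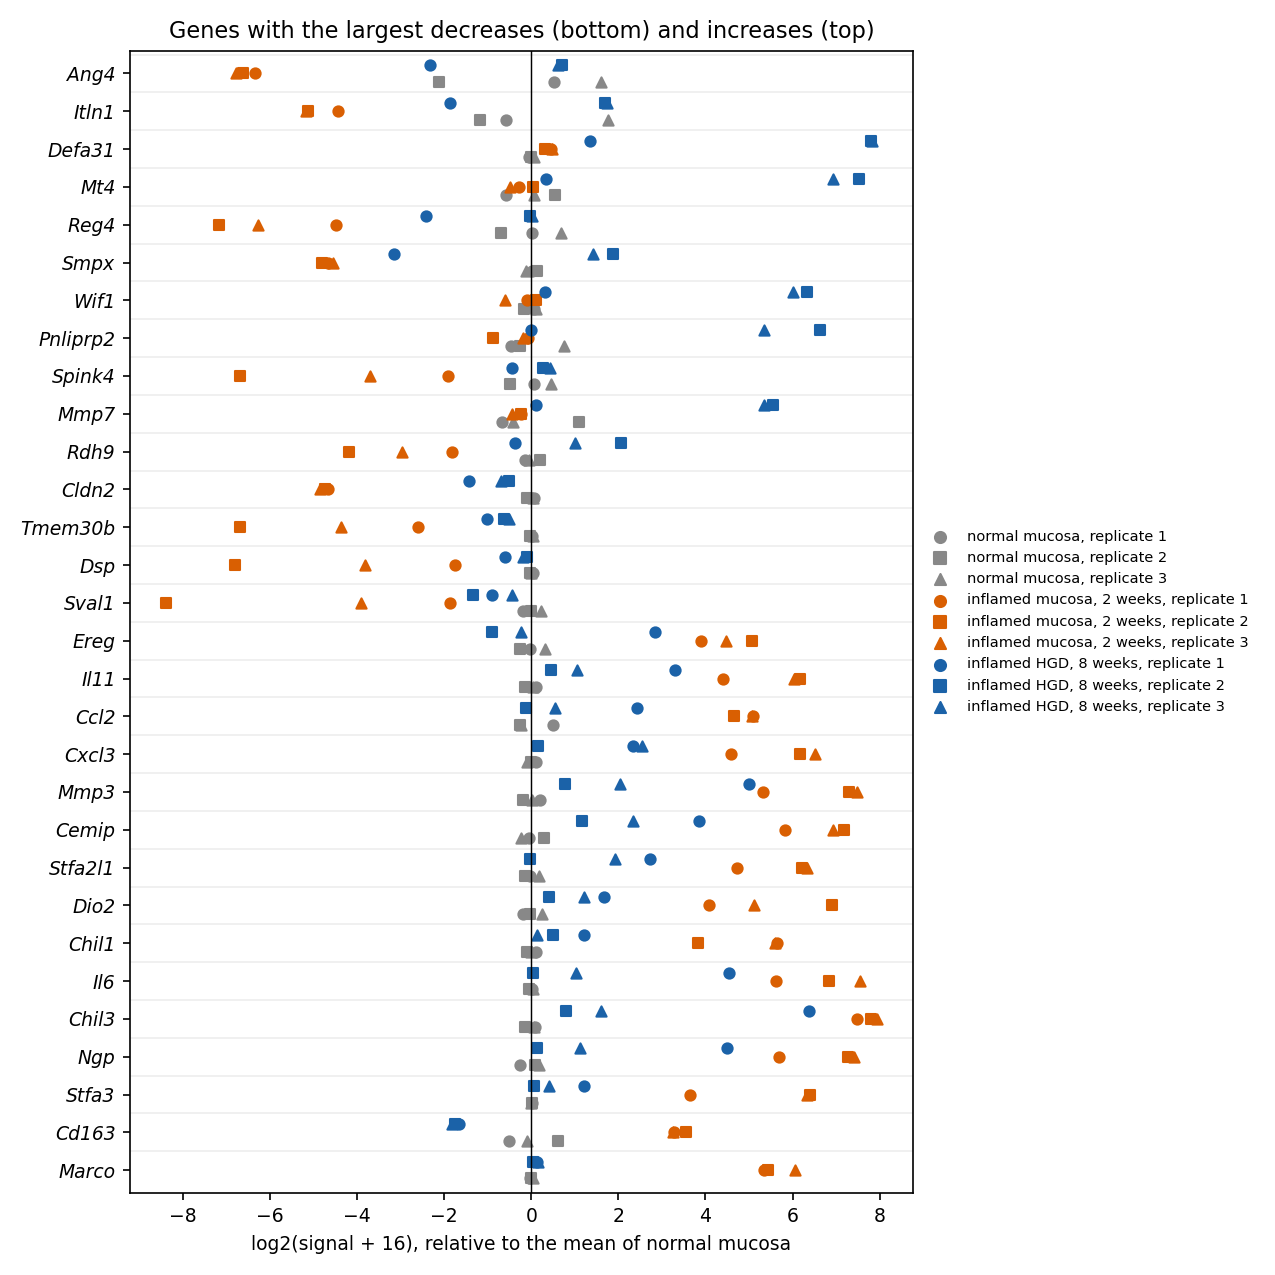
Level of the 15 genes with the largest rise and the 15 with the largest fall, per array, as log2(signal + 16) minus the mean of the 3 normal arrays. Normal mucosa, inflamed mucosa and dysplasia have separate colours and the replicate numbers separate symbols. Marco sits at the normal level in all 3 dysplasia arrays, whereas for Chil3, Ngp and Mt4 the array labelled dysplasia replicate 1 lies apart from its partners.

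For the following 3 genes no difference between inflamed and normal mucosa was called while dysplasia stood above inflamed mucosa. Sptssb, a subunit of serine palmitoyltransferase in sphingolipid synthesis, measured 4.72, 4.80 and 5.16 in the inflamed mucosa and 8.10, 9.15 and 8.66 in the dysplasia (3.74 ± 0.45, adjusted p = 3.1e-05) against a normal mean of 4.69. All 3 dysplasia arrays were high, the array labelled replicate 1 included, and a second probe set differed by 1.38. Myl7, the atrial myosin regulatory light chain, measured 7.65, 5.51 and 7.08 in the inflamed mucosa and 9.81, 10.32 and 10.12 in the dysplasia (3.34 ± 0.42, adjusted p = 4.58e-05) against a normal mean of 7.19. Its 3 dysplasia arrays were also above every inflamed array, of which replicate 2 was the furthest below the normal mean. Mmp7 (matrilysin), an epithelial protease and Wnt target, measured 6.29, 6.30 and 6.08 in the inflamed mucosa and 6.64, 12.08 and 11.89 in the dysplasia (3.98 ± 1.19, adjusted p = 0.0162) against a normal mean of 6.53. It differed by 5.76 without the array labelled dysplasia replicate 1, but was not called without dysplasia replicate 2 or 3 (adjusted p = 0.0776).

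**Figure D2:**
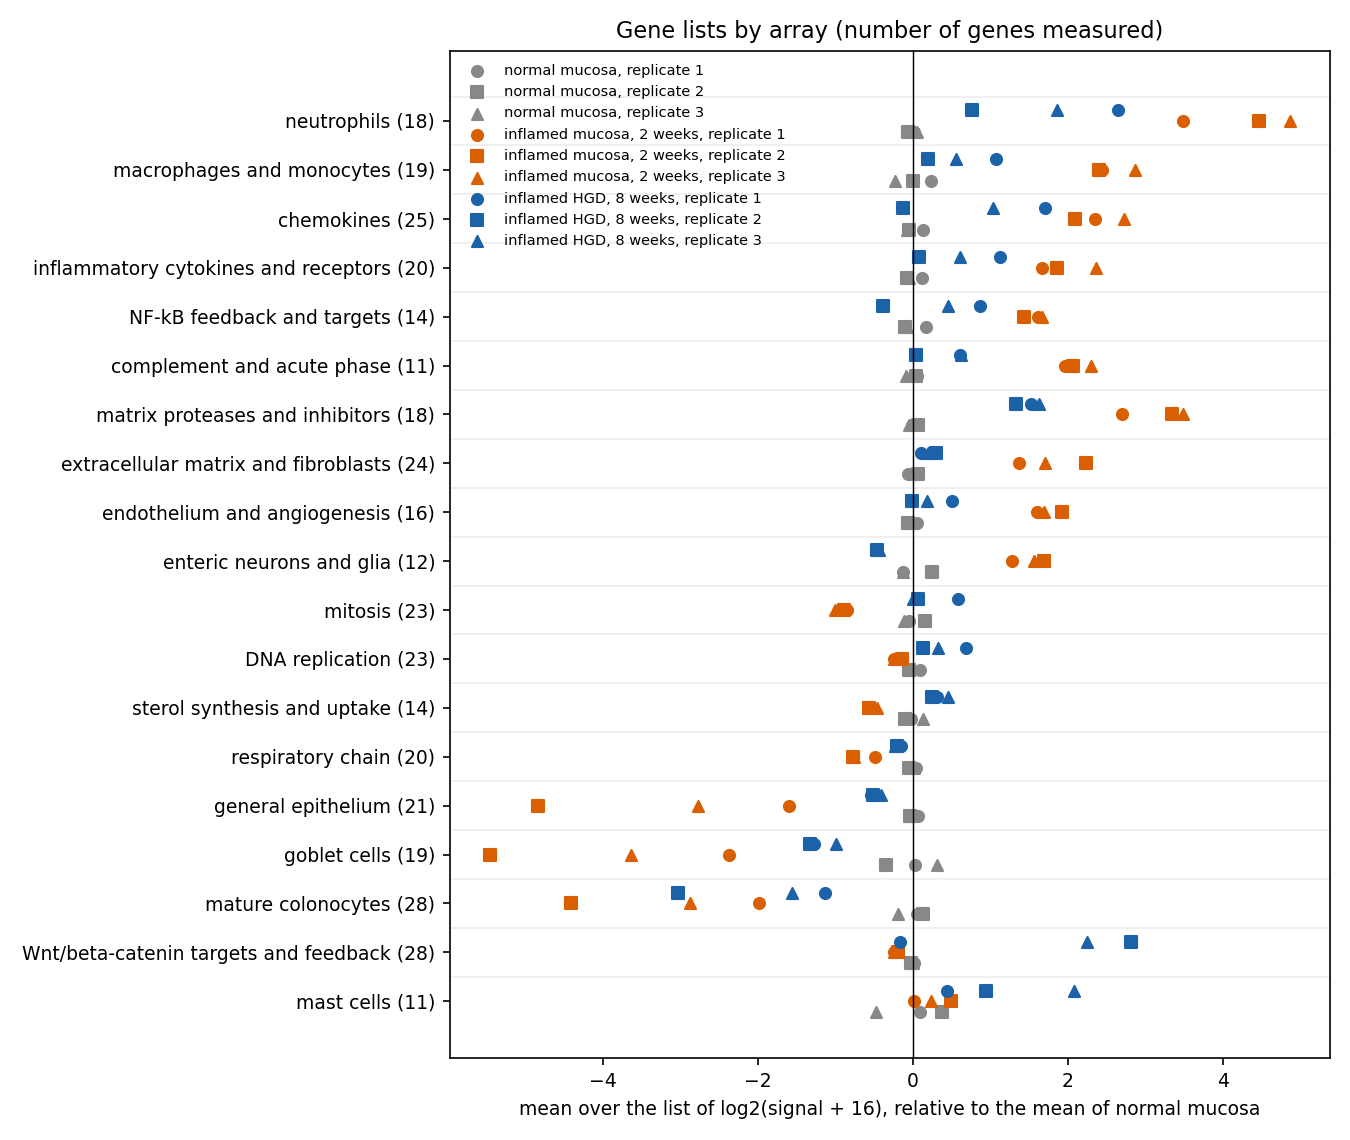
Mean of each of a choice of gene lists per array, as log2(signal + 16) relative to the normal mean of each gene, for the 3 normal, 3 inflamed and 3 dysplasia arrays. Neurons, endothelium and mitosis separate the groups with little spread, while the Wnt list is near 0 in the array labelled dysplasia replicate 1 (-0.17) and at 2.81 and 2.24 in its partners.

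Among the lists of cell types, macrophages and monocytes were lower in dysplasia in 14 of 19 measured genes and higher in 1, with a median of -1.58 (all genes, 0.04). The higher one was Cx3cr1 (0.57 ± 0.17), the fractalkine receptor of resident macrophages, which was not called without inflamed replicate 2 or 3 or dysplasia replicate 2 (adjusted p = 0.0713). Mrc1, the mannose receptor, was lower, at -2.51 ± 0.26, adjusted p = 8.84e-06. Of 18 neutrophil genes 10 were lower and none higher, with a median of -2.64, and 6 were lower with a median of -2.31 without inflamed replicate 3. The list averaged 3.48, 4.46 and 4.86 above normal in inflamed mucosa and 2.65, 0.76 and 1.86 in dysplasia, so that each dysplasia array still stood above normal. S100a8, a calprotectin subunit and one of the most abundant neutrophil transcripts, measured 13.96, 14.35 and 14.44 in the inflamed mucosa and 13.62, 9.61 and 12.96 in the dysplasia and did not pass (-2.19 ± 1.30, adjusted p = 0.196). The dysplasia arrays spread widely, from near the inflamed level to well below it, and the mean remained 5.70, adjusted p = 0.0175, relative to normal. S100a9, its partner, differed by -2.88 ± 1.40, adjusted p = 0.117, and at -3.82, adjusted p = 0.0547, without the array labelled dysplasia replicate 1.

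Of 11 T cell genes 2 were lower, near the share of all genes. The number was 5 without the array labelled dysplasia replicate 1 and 1 without inflamed replicate 2 or 3 or dysplasia replicate 2 or 3. Of 11 B and plasma cell genes none was called, but 4 were lower without the array labelled dysplasia replicate 1 and 2 were higher without dysplasia replicate 2. The list averaged 1.35, -1.05 and 0.39 relative to normal in the dysplasia arrays. Among 10 genes of dendritic cells and antigen presentation 3 were lower and none higher, with a median of 0.02, and 1 was lower without inflamed replicate 1 or 3 or dysplasia replicate 2 or 3. Of 11 mast cell genes 3 were higher, near the share of all genes, and 1 was lower, and a fit of the 6 arrays alone called none higher. Their median was 0.72, or 0.34 without dysplasia replicate 3. Ms4a2, a chain of the IgE receptor, was higher by 1.93 ± 0.64, adjusted p = 0.0271, and the mast cell proteases Cma1 and Tpsab1 were higher by 1.40 ± 0.44 and 1.14 ± 0.43. Kit, the stem cell factor receptor of mast cells and of pacemaker cells of the gut wall, was lower, at -0.84 ± 0.21, adjusted p = 0.0061. No mast cell gene was higher without inflamed replicate 1, dysplasia replicate 2 or dysplasia replicate 3, and 1 was without inflamed replicate 3. Ms4a2 was called in 1 of the 6 fits, that without the array labelled dysplasia replicate 1 (2.92, adjusted p = 0.00012), and differed by 1.03 without dysplasia replicate 2 (adjusted p = 0.129). The largest adjusted p was 0.104 for Cma1 and 0.183 for Tpsab1.

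Chemokines, the attractants of these cells, were lower in dysplasia in 12 of 25 measured genes and higher in 3, with a median of -1.79, or -1.04 without dysplasia replicate 2. Ccl2, which draws monocytes, measured 12.22, 11.78 and 12.20 in the inflamed mucosa and 9.54, 7.0 and 7.67 in the dysplasia (-4.00 ± 0.48, adjusted p = 3.24e-05), and dysplasia replicates 2 and 3 were close to the normal mean of 7.12. Cxcl1, which draws neutrophils, measured 12.78, 13.19 and 13.71 in the inflamed mucosa and 11.81, 8.16 and 10.02 in the dysplasia (-3.23 ± 1.06, adjusted p = 0.0258), with the dysplasia arrays below every inflamed array but spread over more than 3 units. Cxcl3, of the same family, was lower, at -4.09 ± 1.26, adjusted p = 0.0191. Both lost their call without inflamed replicate 2 or 3 or dysplasia replicate 2, and Cxcl1 also without dysplasia replicate 3 (adjusted p = 0.12 and adjusted p = 0.0795). Cxcl2 and Cxcl5, also neutrophil attractants, differed by -3.08 ± 1.33, adjusted p = 0.0791 and at -2.38 ± 1.05, adjusted p = 0.0875, which did not pass. The 3 that rose were Ccl28 (1.87 ± 0.58, though another probe set differed by 0.08), Ccl25 (0.54 ± 0.16), both epithelial attractants of gut lymphocytes, and Cxcl11 (1.16 ± 0.40). Ccl28 and Cxcl11 were not called without inflamed replicate 2 or 3, dysplasia replicate 3 or the array labelled dysplasia replicate 1 (adjusted p = 0.084 and adjusted p = 0.135), and Cxcl11 differed by 0.62 without the last. Ccl25 was not called without inflamed replicate 1 (adjusted p = 0.055). The number of lower chemokines was 7 without inflamed replicate 3 and 7 without dysplasia replicate 2.

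Some of these genes carry a kappa-B type motif close to their start. The kappa-B motif, the letters that NF-kB subunits bind, was searched on both strands and occurs within 250 bases before the start of 5 of 17 chemokine genes and 2 of 16 cytokine genes with a RefSeq promoter, against 1.65% of 27025 mouse genes. In the list of NF-kB feedback and target genes, described below, it occurs in 3 of 11. The stretches of 120 bases below (RefSeq, GRCm38.p6, written 5′ to 3′ along the gene, motif in capitals) belong to the cytokine with the largest fall and to the neutrophil attractants of one cluster on chromosome 5. In Il6 the motif lies 44 to 35 bases before the start, in Cxcl3 73 to 64, in Cxcl1 71 to 62 and in Cxcl2 97 to 88. A match is a description of the sequence and not a measured binding site.
Il6 promoter, chr5:30012994-30013113, plus strand: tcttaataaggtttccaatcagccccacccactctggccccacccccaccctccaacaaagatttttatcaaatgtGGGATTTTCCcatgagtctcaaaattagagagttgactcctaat
Cxcl3 promoter, chr5:90785973-90786092, plus strand: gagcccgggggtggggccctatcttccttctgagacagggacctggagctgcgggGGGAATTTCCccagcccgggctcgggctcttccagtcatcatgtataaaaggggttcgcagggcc
Cxcl1 promoter, chr5:90891119-90891238, plus strand: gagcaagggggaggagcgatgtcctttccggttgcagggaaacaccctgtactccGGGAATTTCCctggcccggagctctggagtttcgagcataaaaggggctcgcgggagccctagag
Cxcl2 promoter, chr5:90903747-90903866, plus strand: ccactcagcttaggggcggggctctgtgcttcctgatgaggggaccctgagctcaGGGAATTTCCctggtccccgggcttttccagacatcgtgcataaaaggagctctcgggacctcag
The motif has the same letters, GGGAATTTCC, in Cxcl1, Cxcl2 and Cxcl3, and reads GGGATTTTCC in Il6. Capitals mark 1 match per gene, and Cxcl1 and Cxcl2 each hold another, 89 to 80 and 78 to 69 bases before the start. Of these genes Cxcl2 did not pass the test. The other matches of these 2 lists lie in Ccl9, which was lower (-2.66 ± 0.40), and in Ccl20 (0.94 ± 0.68) and Il1rn (-0.83 ± 0.38), which did not pass, so that 3 of the 7 chemokine and cytokine genes with a match were not called. Those of the NF-kB list lie in Tnfaip3, Nfkbia and Nfkb2, which were lower (-1.34, -0.75 and -0.80).

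Inflammatory cytokines and their receptors were lower in 13 of 20 genes and higher in 2, with a median of -1.40. Il6, which drives STAT3 signalling in colon epithelium, measured 10.25, 11.46 and 12.17 in the inflamed mucosa and 9.17, 4.66 and 5.65 in the dysplasia (-4.80 ± 0.90, adjusted p = 0.00083). Dysplasia replicates 2 and 3 were near the normal mean of 4.62 and the array labelled replicate 1 was over 1 log2 unit below the lowest inflamed array, and without it the difference was -6.14. Il11, a cytokine of the same receptor family made by stroma, measured 10.02, 11.78 and 11.65 in the inflamed mucosa and 8.93, 6.07 and 6.65 in the dysplasia (-3.93 ± 0.72, adjusted p = 0.000717), with no overlap. Csf3, the growth factor of neutrophils, was lower, at -3.85 ± 0.42, adjusted p = 1.58e-05, Il1r1, a receptor of interleukin 1, at -2.37 ± 0.33 and the alarmin Il33 at -1.37 ± 0.45. Il33 was not called without inflamed replicate 2 or 3 or dysplasia replicate 2 or 3 (adjusted p = 0.0859). The higher genes were Il18 (1.49 ± 0.50), an epithelial cytokine, and Il22ra1 (1.11 ± 0.29), the epithelial receptor chain for IL-22, and Il18 was not called without inflamed replicate 2 or 3, dysplasia replicate 3 or the array labelled dysplasia replicate 1 (adjusted p = 0.151). Without inflamed replicate 2 Il18 differed by 0.84. Tnf and Il17a did not pass, at 0.04 ± 0.24, adjusted p = 0.914 and 0.12 ± 0.50, adjusted p = 0.869. Il1b differed by -2.36 ± 1.04, adjusted p = 0.0862, and passed without the array labelled dysplasia replicate 1 (-3.22, adjusted p = 0.027). Il23a did not pass either (1.52 ± 0.65, adjusted p = 0.0786), and was higher without that array (2.55, adjusted p = 0.0003). Stat3 itself was lower, at -1.15 ± 0.11, adjusted p = 4.02e-06, while the list of STAT3 targets and epithelial defence held 1 higher and 2 lower of 15. Pigr, the transporter of IgA across epithelium, was the higher one (3.45 ± 1.05, adjusted p = 0.018), and it differed by 1.65, adjusted p = 0.0315, without inflamed replicate 2. It was not called without dysplasia replicate 3 (adjusted p = 0.0666). That list had 5 lower genes without the array labelled dysplasia replicate 1 and 6 higher genes without dysplasia replicate 2.

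NF-kB feedback and target genes were lower in 12 of 14 and higher in none, with a median of -1.13, or -0.68 without dysplasia replicate 2. A fit of the 6 arrays alone called 8 lower. They include Cebpb (-2.52 ± 0.43, adjusted p = 0.000456), a transcription factor of acute inflammation, Icam1 (-1.54 ± 0.28), an adhesion molecule, and Sod2 (-1.95 ± 0.22, with another probe set at -0.57), the mitochondrial superoxide dismutase. Nfkbia, the inhibitor that NF-kB induces, was lower, at -0.75 ± 0.16, adjusted p = 0.00236. The list averaged 1.61, 1.43 and 1.67 above normal in inflamed mucosa and 0.87, -0.39 and 0.45 in dysplasia. Complement and acute phase genes were lower in 9 of 11, in each of the 6 fits without 1 array as well. Orm2, an acute phase carrier protein, measured 7.66, 7.67 and 7.13 in the inflamed mucosa and 4.63, 4.56 and 4.58 in the dysplasia (-2.90 ± 0.12, adjusted p = 1.77e-09), and Ptx3, a pentraxin, was lower, at -3.69 ± 0.33, adjusted p = 3.83e-06. Within each group of arrays Orm2 varied by under 1 log2 unit and the groups did not overlap.

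Eicosanoid genes were lower in 10 of 17 and higher in 2, or 6 and 1 in a fit of the 6 arrays alone. Ptgs2, the inducible cyclooxygenase, measured 8.63, 11.18 and 11.07 in the inflamed mucosa and 9.26, 5.32 and 7.38 in the dysplasia (-2.98 ± 1.02, adjusted p = 0.032). Its arrays overlapped, since the array labelled dysplasia replicate 1 was above inflamed replicate 1, and it was not called without inflamed replicate 2 or 3 or dysplasia replicate 2 or 3 (adjusted p = 0.153). Without dysplasia replicate 2 it differed by -1.97. Ptges, which makes prostaglandin E2, was lower, at -2.65 ± 0.42, adjusted p = 0.000261 (another probe set, -0.98), and the receptor Ptger3 at -2.25 ± 0.29. Hpgd, which degrades prostaglandins, was higher by 1.49 ± 0.44, adjusted p = 0.0156. Its call was lost without inflamed replicate 3 or dysplasia replicate 2 (adjusted p = 0.0664). No eicosanoid gene was higher without inflamed replicate 3 or dysplasia replicate 2, and 1 was without inflamed replicate 2. Of 24 interferon-stimulated genes 2 were lower and none higher, with a median of -0.42. None was lower without inflamed replicate 1, where 1 was higher, or without dysplasia replicate 2, with medians of -0.23 and 0.01. The lower number was 1 without inflamed replicate 3 or dysplasia replicate 3. Without the array labelled dysplasia replicate 1, 3 were lower and 1 was higher.

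The wall around the epithelium differed in several compartments at once. All 16 endothelial and angiogenic genes were lower in dysplasia, with a median of -1.32, and 15 or 16 were in each fit without 1 array. Selp (P-selectin), which catches leukocytes on activated vessels, was lower, at -3.26 ± 0.61, adjusted p = 0.0008, Emcn, a sialomucin of capillaries and veins, at -2.61 ± 0.25, adjusted p = 5.76e-06 and Pecam1 at -1.48 ± 0.21. The list averaged 1.60, 1.92 and 1.69 above normal in inflamed mucosa and 0.51, -0.01 and 0.19 in dysplasia. Extracellular matrix and fibroblast genes were lower in 21 of 24 with none higher, with a median of -1.50. Lox, which crosslinks collagen, was lower, at -3.06 ± 0.50, adjusted p = 0.000328, tenascin C (Tnc) at -2.92 ± 0.45 and Col4a2 at -2.31 ± 0.28, whereas Col1a1, the main fibrillar collagen, differed by -1.31 ± 0.54, adjusted p = 0.0683.

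Matrix proteases and their inhibitors were lower in 13 of 18 and higher in 1. Mmp3 (stromelysin) measured 11.39, 13.37 and 13.55 in the inflamed mucosa and 11.06, 6.85 and 8.10 in the dysplasia (-4.10 ± 0.83, adjusted p = 0.00155). All dysplasia arrays were below all inflamed arrays, but the array labelled replicate 1 was within 1 log2 unit of the lowest of them. Adamts1 was lower, at -3.24 ± 0.33, Timp1 at -2.74 ± 0.49 and Mmp10 at -2.47 ± 0.76. Mmp10 was not called without inflamed replicate 2 or 3 or dysplasia replicate 2 (adjusted p = 0.0833). The list stood 1.53, 1.33 and 1.63 above normal in the dysplasia arrays. The higher member was Mmp7, described above.

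Of 12 enteric neuron and glia genes 11 were lower in dysplasia, with a median of -2.22. All 12 were lower in every dysplasia array than in every inflamed array. Vip, a neuropeptide of secretomotor and inhibitory neurons, measured 12.75, 13.26 and 13.26 in the inflamed mucosa and 10.42, 10.00 and 10.04 in the dysplasia (-2.94 ± 0.37, adjusted p = 4.58e-05) against a normal mean of 10.49. The synaptic protein Snap25 was lower, at -2.69 ± 0.25, adjusted p = 4.02e-06 and Uchl1, an abundant neuronal deubiquitinase, at -2.74 ± 0.33. Gfap, the glial filament, did not pass (-0.22 ± 0.10, adjusted p = 0.0896). Relative to normal mucosa the list averaged 1.28, 1.70 and 1.56 in the inflamed arrays and -0.47, -0.46 and -0.43 in the dysplasia. Smooth muscle was lower in dysplasia as well but was below normal in both groups, at -0.44, -0.25 and -0.51 in inflamed mucosa and -1.20, -1.12 and -1.20 in dysplasia. Only 2 of its 15 genes were called lower, Hspb7 (-2.41 ± 0.30) and Tagln (-0.77 ± 0.29), although 13 of 15 were lower in every dysplasia array, and a fit of the 6 arrays alone called 8. Without any single array other than inflamed replicate 3 the number was 1, and Tagln was the gene lost (adjusted p = 0.15). How much muscle, nerve plexus and mucosa each piece held is not given in the labels, and its part in these differences was not tested. Of 5 measured genes of the fat cell list 2 were lower, Fabp4 (-2.12 ± 0.22) and Lpl (-1.86 ± 0.67), and none was called higher. The list's median was only -0.25 and its highest member differed by 0.69. Without 1 array Fabp4 always kept its call. Lpl kept it only without the array labelled dysplasia replicate 1 (largest adjusted p = 0.155). Of 8 squamous epithelial genes 1, Sbsn, was lower (-1.04 ± 0.33), a call lost without inflamed replicate 2 or 3, dysplasia replicate 3 or the array labelled dysplasia replicate 1 (adjusted p = 0.102). Of 4 pancreatic genes 1, Cela1, was higher (1.64 ± 0.38).

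**Figure D3:**
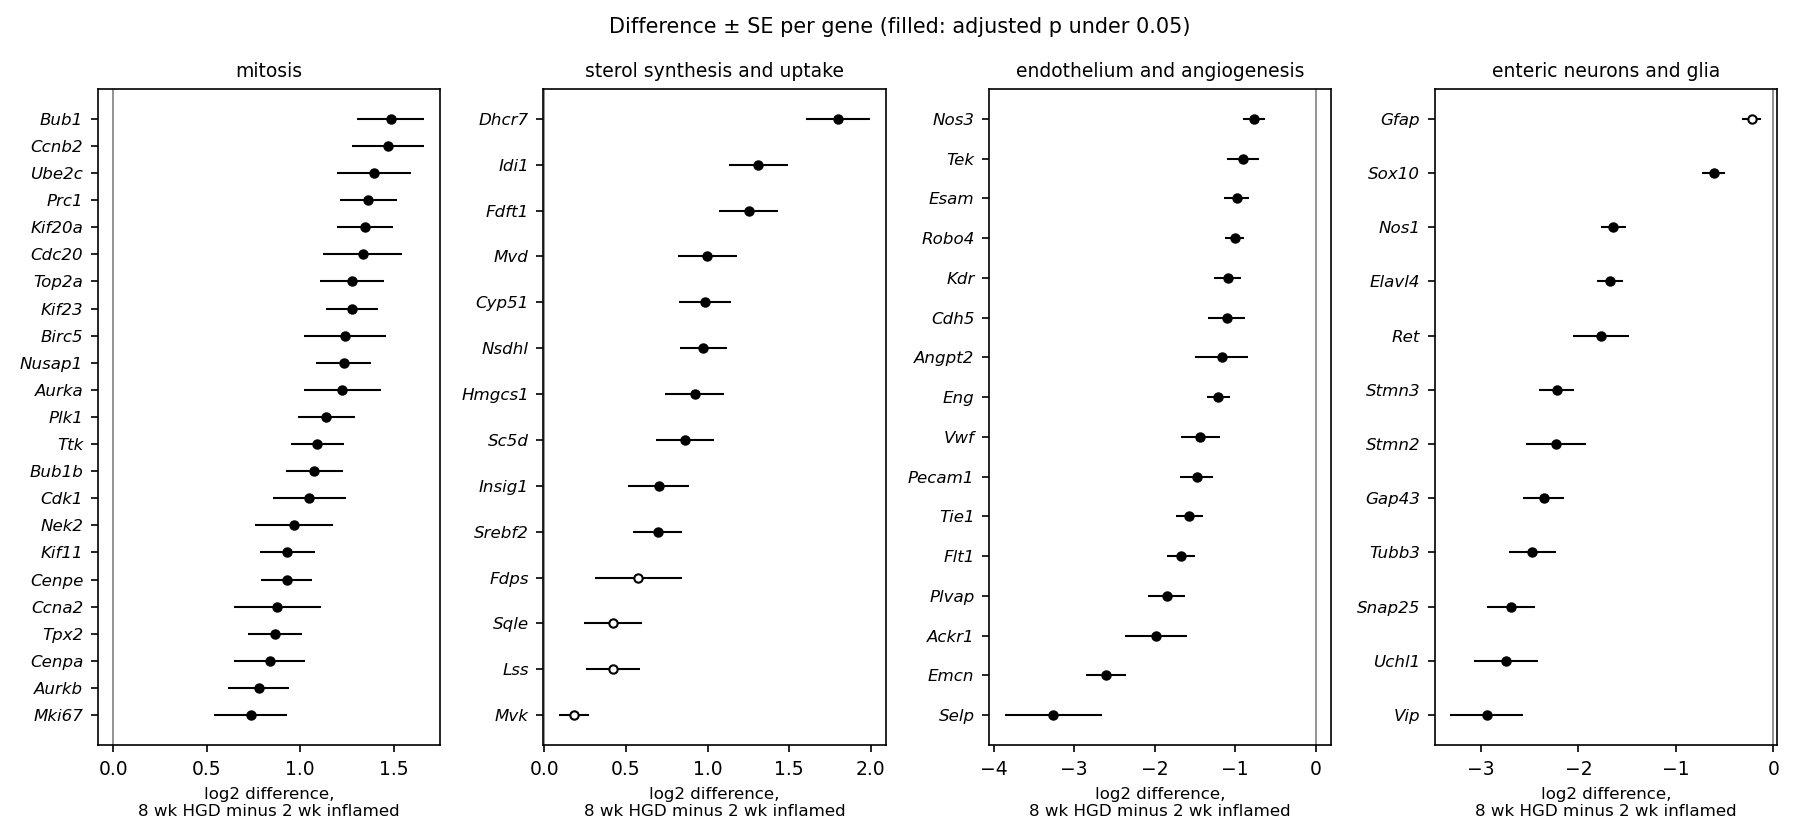
Difference, dysplasia minus inflamed mucosa, on the log2(signal + 16) scale with its standard error for each measured gene of 4 lists, with filled points for an adjusted p under 0.05. All 23 mitosis genes lie to the right of 0 and all 16 endothelial genes to the left, and Gfap is the open point among the neuron and glia genes.

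Epithelial genes were higher in dysplasia. Of 21 general epithelial genes 20 were higher and none lower, with a median of 2.75. Epcam, the pan-epithelial adhesion molecule, measured 11.66, 8.28 and 10.45 in the inflamed mucosa and 12.69, 13.17 and 13.06 in the dysplasia (2.84 ± 0.53, adjusted p = 0.000864), and its dysplasia arrays were near the normal mean of 13.20. Esrp1, the epithelial splicing regulator, was higher by 3.51 ± 0.48, adjusted p = 7.76e-05 and the cadherin Cdh1 by 2.93 ± 0.69. Without inflamed replicate 2, the array with least epithelial RNA, 19 were higher and the median was 1.76, with Cdh1 at 1.73. Relative to normal mucosa 21 of 21 were lower in the inflamed group (median -3.05) and none was called in dysplasia (median -0.47). The normal arrays are shared by these 2 comparisons. The share of epithelial RNA thus moved with the groups. Its part in the other lists was not tested, those of the wall, epithelial cell types, cell division, Wnt genes and metabolism included. A fit of the 6 arrays alone called 11 of the 21 higher.

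Goblet cell genes were higher in 14 of 19, with none lower and a median of 2.42. Muc2, the gel-forming mucin of the colon, measured 11.71, 6.05 and 9.53 in the inflamed mucosa and 12.33, 12.55 and 13.03 in the dysplasia (3.54 ± 0.90, adjusted p = 0.0067) against a normal mean of 13.30. All dysplasia arrays were above all inflamed arrays, which spread over more than 5 units, and the difference was 2.02 without inflamed replicate 2. Retnlb, a goblet cell resistin-like protein, did not pass (1.19 ± 1.87, adjusted p = 0.65). Of 8 deep crypt secretory and Paneth cell genes 5 were higher and 1 lower, or 3 higher without dysplasia replicate 2. The list stood at -1.68, -2.99 and -2.40 relative to normal in inflamed mucosa and at -0.63, 1.39 and 1.07 in dysplasia.

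Of 28 mature colonocyte genes 7 were higher, near the share of all genes, and 1 was lower, with a median of 1.33. The median was 0.51 without inflamed replicate 2, 0.82 without the array labelled dysplasia replicate 1, 2.04 without inflamed replicate 1 and 2.00 without dysplasia replicate 2. Relative to normal 9 were lower in dysplasia (median -1.85) and 24 in inflamed mucosa (median -3.15). Slc26a3, the chloride and bicarbonate exchanger of surface colonocytes, measured 10.46, 5.34 and 8.84 in the inflamed mucosa and 11.56, 6.53 and 10.24 in the dysplasia (1.23 ± 1.37, adjusted p = 0.508) against a normal mean of 13.34. The 2 groups overlapped, and no dysplasia array reached the normal mean. Car4, the surface carbonic anhydrase, differed by -0.29 ± 1.41, adjusted p = 0.893. The sodium and proton exchanger Slc9a3 was higher by 3.27 ± 0.55, adjusted p = 0.000372, with another probe set at 0.40, and the butyrate transporter Slc16a1 was the lower one (-0.90 ± 0.32, adjusted p = 0.0361). Of the 6 fits without 1 array it was called in that without the array labelled dysplasia replicate 1 only (adjusted p = 0.18), and it differed by -0.51 without dysplasia replicate 2. The number of higher colonocyte genes depended on single arrays and was 12 without inflamed replicate 1, 2 without inflamed replicate 2, 12 without dysplasia replicate 2 and 4 without dysplasia replicate 3. The list averaged -1.13, -3.03 and -1.56 in dysplasia, lowest in replicate 2.

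Of 13 enteroendocrine genes 4 were lower and none higher, with a median of -1.07. The lower genes were the granule proteins Scg5 (-3.04 ± 0.33, adjusted p = 1.32e-05), Scg2 (-2.72 ± 0.30) and Pcsk1n (-1.23 ± 0.14), and the hormone somatostatin, Sst (-2.97 ± 0.32, adjusted p = 1.23e-05). Enteric neurons also make all 4, and the neuron list above moved with them, so that the cell of origin cannot be told apart here. Dclk1, a tuft cell and neuronal kinase, was lower, at -1.46 ± 0.36.

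Genes of cell division were higher in dysplasia. All 23 measured mitosis genes were higher in dysplasia, with a median of 1.14, in the comparison of all arrays and in each of the 6 fits without 1 array, where the median ranged from 0.96 to 1.24. The differences ran from 0.73 (Mki67) to 1.48 (Bub1). Ube2c, the ubiquitin-conjugating enzyme of the anaphase-promoting complex, measured 9.36, 9.35 and 9.24 in the inflamed mucosa and 11.23, 10.50 and 10.41 in the dysplasia (1.40 ± 0.20, adjusted p = 9.85e-05). Mki67, the common proliferation marker, measured 9.45, 9.47 and 9.04 in the inflamed mucosa and 10.59, 9.74 and 9.83 in the dysplasia (0.73 ± 0.19, adjusted p = 0.00837). In both genes the groups did not overlap, the array labelled dysplasia replicate 1 was the highest and the normal means, 10.61 and 10.18, lay among the dysplasia values. Without that array Mki67 differed by 0.46, adjusted p = 0.0248. The list averaged -0.85, -0.89 and -1.0 relative to normal in inflamed mucosa, where 21 of 23 genes were lower than normal, and 0.59, 0.06 and 0.00 in dysplasia, where none was called. DNA replication genes were higher in 13 of 23 and lower in none, with a median of 0.64, including Uhrf1 (1.46 ± 0.27, another probe set 0.63) and the helicase subunit Mcm7 (1.02 ± 0.17), while Pcna differed by 0.26 ± 0.20, adjusted p = 0.318. Ribosome biogenesis genes were higher in 4 of 22, near the share of all genes, in 1 without any one of the inflamed arrays or the array labelled dysplasia replicate 1, and in 2 without dysplasia replicate 3.

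The letters TTTGAA or, on the other strand, TTCAAA form the core of the cell cycle homology region through which many mitosis genes are held silent outside division. They occur in the 250 bases before the start of 8 of 19 mitosis genes with a RefSeq promoter and of 18.3% of all 27025 genes. The promoters of Ube2c and of Cdc20, the activator of the anaphase-promoting complex (1.33 ± 0.21, adjusted p = 0.000267), are shown over 120 bases (RefSeq, GRCm38.p6, motif in capitals), with the motif 29 to 24 and 18 to 13 bases before the start.
Ube2c promoter, chr2:164769809-164769928, plus strand: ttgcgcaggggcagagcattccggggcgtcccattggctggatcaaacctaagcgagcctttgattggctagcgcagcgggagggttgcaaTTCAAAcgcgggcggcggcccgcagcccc
Cdc20 promoter, chr4:118437344-118437463, minus strand: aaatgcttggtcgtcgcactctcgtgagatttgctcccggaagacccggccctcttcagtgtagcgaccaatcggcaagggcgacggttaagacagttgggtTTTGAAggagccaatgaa
Both motifs lie within 30 bases of the annotated start, and the data do not measure what binds there.

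Wnt and beta-catenin genes separated the dysplasia arrays from each other. With all arrays, 20 of 28 genes were higher than in inflamed mucosa and none lower, with a median of 1.82. Relative to normal mucosa the list averaged -0.24, -0.20 and -0.24 in the inflamed arrays, -0.17 in the array labelled dysplasia replicate 1 and 2.81 and 2.24 in dysplasia replicates 2 and 3. That array was above all 3 inflamed arrays for 12 of the 28 genes and below all of them for 10, while its partners were each above for 26. For 15 genes it was below every normal array. In the 3 arrays of dysplasia at 6 weeks the list averaged 1.94, 1.71 and 1.49, and in those of carcinoma 1.13, 1.87 and 1.67. Without the array, 25 genes were higher with a median of 2.82. Without dysplasia replicate 2 the number was 7, without dysplasia replicate 3 it was 9, and without inflamed replicates 1 and 3 in turn it was 12 and 13. A fit of the 6 arrays alone called 5 higher. The array labelled dysplasia replicate 1 was set apart partly by the low level of these same genes. Leaving it out therefore raises their differences by construction. The Wnt gene counts, differences and adjusted p-values without it, here and below, are a description and not a test.

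The secreted inhibitors of the pathway differed among themselves. Wif1, which binds Wnt ligands, measured 5.58, 5.79 and 5.07 in the inflamed mucosa and 5.99, 12.01 and 11.68 in the dysplasia (4.41 ± 1.25, adjusted p = 0.0124), a difference of 6.36 without the array labelled dysplasia replicate 1. Notum, which removes the lipid from Wnt ligands, was higher by 3.14 ± 0.98, adjusted p = 0.02, and by 4.69 without that array. Dkk2 (1.71 ± 0.82, adjusted p = 0.113) and Dkk3 (0.04 ± 0.37, adjusted p = 0.946), of the dickkopf family, did not pass. Without the array labelled dysplasia replicate 1 Dkk2 did (2.92, adjusted p = 0.00165). Axin2, the scaffold of the beta-catenin destruction complex and a feedback target, measured 6.69, 6.77 and 7.01 in the inflamed mucosa and 7.45, 11.12 and 10.36 in the dysplasia (2.82 ± 0.70, adjusted p = 0.00556) against a normal mean of 7.81. In Wif1 and Axin2 replicates 2 and 3 of the dysplasia were far above every inflamed array, and the array labelled replicate 1 was only slightly above. Wif1 was not called without dysplasia replicate 2 or 3 (adjusted p = 0.0618), nor Notum without those or without inflamed replicate 1 or 3 (adjusted p = 0.101). At the membrane, the ubiquitin ligase Rnf43, which removes Wnt receptors, was higher by 3.14 ± 0.58, adjusted p = 0.000725, and the R-spondin receptors Lgr5 and Lgr4 by 2.54 ± 0.90 and 1.27 ± 0.24. Lgr5, also the marker of crypt base stem cells, measured 5.94, 5.54 and 5.91 in the inflamed mucosa and 5.55, 10.16 and 9.30 in the dysplasia, so that the array labelled dysplasia replicate 1 lay inside the inflamed range. It was called without that array (3.93, adjusted p = 0.000218) and in none of the other 5 fits without 1 array (adjusted p = 0.176), and differed by 1.63 without dysplasia replicate 2.

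Among the transcription factors of the list, Sox9, a regulator of crypt progenitors, measured 6.44, 5.57 and 6.10 in the inflamed mucosa and 7.76, 9.29 and 8.77 in the dysplasia (2.57 ± 0.33, adjusted p = 5.25e-05) and was higher in all 3 dysplasia arrays. Ascl2 was higher by 1.68 ± 0.49, Prox1 by 3.00 ± 1.06 and Sp5 by 2.45 ± 0.91. Ascl2 was not called without dysplasia replicate 2 (adjusted p = 0.0733), and Prox1 was called in none of the 5 fits that kept the array labelled dysplasia replicate 1 and left out another (adjusted p = 0.171). Myc measured 7.45, 7.20 and 7.50 in the inflamed mucosa and 8.10, 8.32 and 8.23 in the dysplasia (0.83 ± 0.19, adjusted p = 0.00336), a small rise without overlap in which the array labelled dysplasia replicate 1 was level with the others. The cyclin Ccnd1 was higher by 1.53 ± 0.26, adjusted p = 0.000401 and the receptor Tnfrsf19 (Troy) by 2.62 ± 0.85, adjusted p = 0.025. Like Prox1, Sp5 and Tnfrsf19 were called in 1 of the 6 fits, that without the array labelled dysplasia replicate 1 (adjusted p = 0.197 and adjusted p = 0.115). The differences without it were 4.69, 3.81 and 3.88, and without dysplasia replicate 2 they were 1.97, 1.63 and 1.91. Apcdd1, an inhibitor at the membrane, did not pass (2.59 ± 1.10, adjusted p = 0.0743), but did without that array (4.35, adjusted p = 0.00023). Cd44, a hyaluronan receptor that many stromal and immune cells share, differed by -0.66 ± 0.28, adjusted p = 0.0717. Of 12 intestinal stem cell genes 7 were higher and 2 lower, or 1 lower without inflamed replicate 3. The lower ones were Olfm4 (-2.27 ± 0.64) and Lrig1 (-0.78 ± 0.16), and Lrig1 had the opposite sign, 0.21, on another probe set. Olfm4 was not called without inflamed replicate 3 (adjusted p = 0.0642).

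**Figure D4:**
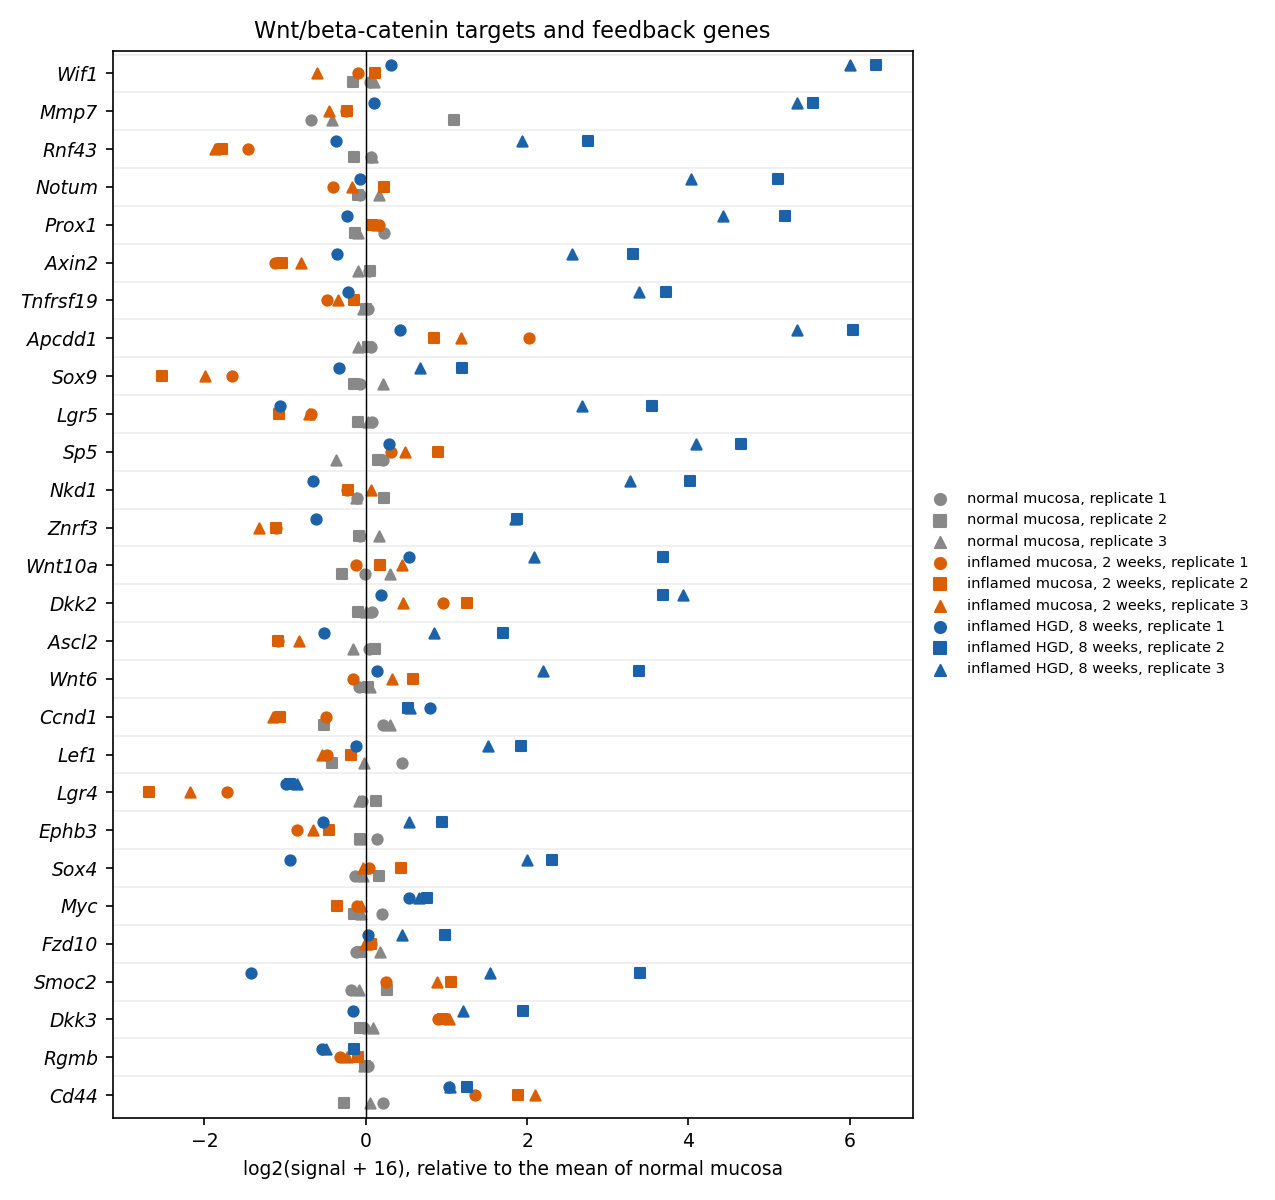
Level of the 28 Wnt and beta-catenin genes per array, as log2(signal + 16) minus the normal mean of each gene, in normal mucosa, inflamed mucosa and dysplasia. Wif1, Axin2 and Lgr5 are raised in dysplasia replicates 2 and 3 and near the inflamed level in the array labelled dysplasia replicate 1, whereas Sox9 and Myc are above the inflamed arrays in all 3.

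The letters CTTTGAT (other strand ATCAAAG), the core bound by TCF and LEF factors, occur in the 250 bases before the start of 3 of 18 genes of this list with a RefSeq promoter and of 3.72% of all genes. The genes are Sp5, Mmp7 and Tnfrsf19. All 3 were called higher, but so were 20 of the 28 genes of the list, and all 3 calls depended on single arrays, as given above. The Mmp7 match lies 247 to 241 bases before an annotated start. Whether that stretch is itself transcribed from an earlier start was not tested. The promoters of Sp5 and Tnfrsf19 are shown over 120 bases (RefSeq, GRCm38.p6, motif in capitals), with the motif 104 to 98 and 202 to 196 bases before the start.
Sp5 promoter, chr2:70474762-70474881, plus strand: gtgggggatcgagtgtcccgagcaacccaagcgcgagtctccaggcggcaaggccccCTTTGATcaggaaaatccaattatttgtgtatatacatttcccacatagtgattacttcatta
Tnfrsf19 promoter, chr14:61038118-61038237, minus strand: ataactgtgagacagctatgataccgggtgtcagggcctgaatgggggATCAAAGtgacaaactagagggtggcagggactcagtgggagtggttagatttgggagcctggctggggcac
Many Wnt responsive elements lie outside such windows, and a promoter without these letters is not described by this count.

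Among growth factor and stress responses, of 15 regenerative and fetal-type epithelial genes 4 were higher and 4 lower, or 2 lower without inflamed replicate 2 or 3 or dysplasia replicate 3. Ereg (epiregulin), a ligand of the EGF receptor, was lower, at -3.91 ± 0.78, adjusted p = 0.00136, and Cldn4 and Krt7 were higher by 2.48 ± 0.54 and 2.94 ± 0.66. Of 14 MAPK feedback genes 2 were higher and 5 lower, with Spred1 lower, at -0.76 ± 0.14 and at 0.14 on another probe set. The lower number was 3 without inflamed replicate 2 or 3 or dysplasia replicate 2 or 3, and the higher number was 4 without the array labelled dysplasia replicate 1 and 1 without inflamed replicate 2 or 3 or dysplasia replicate 2 or 3. Of 15 immediate early genes 2 were higher and 6 lower, or 2 lower without inflamed replicate 3 or dysplasia replicate 2 and 1 higher without inflamed replicate 2 or dysplasia replicate 3, with Nr4a1 lower, at -2.10 ± 0.32 and Atf3 higher by 0.88 ± 0.25 (not called without inflamed replicate 2, adjusted p = 0.0723). Hypoxia genes were lower in 9 of 19 and higher in 1, with 5 lower without inflamed replicate 3 and 3 higher without dysplasia replicate 2. Their median of -0.49 was -0.31 without inflamed replicate 2 and -0.30 without dysplasia replicate 2. The vasodilator peptide Adm was lower, at -2.46 ± 0.38, adjusted p = 0.000193 and the glycolytic regulator Pfkfb3 at -1.52 ± 0.32, while Car9, a membrane carbonic anhydrase, was higher by 1.09 ± 0.36, a call lost without inflamed replicate 2, dysplasia replicate 3 or the array labelled dysplasia replicate 1 (adjusted p = 0.128). Car9 differed by 0.61 without inflamed replicate 2. Of 15 p53 targets 1 was higher, Perp (1.78 ± 0.33), a desmosomal protein as well, and 3 were lower, among them Plk2 (-1.49 ± 0.27) and Fas (-1.45 ± 0.25). Cdkn1a, the cell cycle inhibitor p21, differed by 0.34 ± 0.23, adjusted p = 0.266. The higher p53 targets numbered 3 without the array labelled dysplasia replicate 1 and 2 without inflamed replicate 1 or 2 or dysplasia replicate 2. Of 18 ER stress genes 1 was higher, Ern2 (2.00 ± 0.36), the stress sensor of mucous cells, and 4 were lower, with Atf4 at -0.74 ± 0.13, or 7 lower without the array labelled dysplasia replicate 1.

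Metabolic genes were partly higher. Sterol synthesis and uptake genes were higher in 10 of 14 with none lower, a median of 0.89 and 10 to 12 higher in each fit without 1 array. Dhcr7, the last enzyme of cholesterol synthesis, measured 7.93, 7.72 and 7.74 in the inflamed mucosa and 9.52, 9.59 and 9.67 in the dysplasia (1.80 ± 0.20, adjusted p = 1.52e-05), with tight groups far apart and a normal mean of 9.99. Idi1 and Fdft1, earlier enzymes of the pathway, were higher by 1.31 ± 0.18 and 1.25 ± 0.18. Respiratory chain genes were higher in 12 of 20 with none lower, but by little, with a median of 0.45 and Uqcrc2 at 1.01 ± 0.17, and 6 were higher with marked probe sets left out. Of 18 fatty acid oxidation genes 8 were higher, 4 without inflamed replicate 2 and 5 without inflamed replicate 3, and 1 was lower, Acaa2 (-0.65 ± 0.14). Hadh was higher by 1.53 ± 0.18 and Ppargc1a, the coactivator that drives mitochondrial genes, by 2.37 ± 0.42. Of 19 xenobiotic genes 7 were higher and 2 lower, with 3 higher without inflamed replicate 2 or 3 and 4 without dysplasia replicate 3. Ugt2b34 (3.64 ± 0.61), Sult1d1 (2.77 ± 0.62) and Gsta4 (2.57 ± 0.55), conjugating enzymes, rose, and Ces1d (-1.58 ± 0.27) and Aldh1a1 (-1.36 ± 0.27) fell.

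Set against normal mucosa, the inflamed group had 2904 higher (22.6%) and 3131 lower genes (24.3%), and the dysplasia group 623 higher (4.84%) and 827 lower (6.42%). These comparisons share the normal arrays, and each shares a group with the comparison above, so that they are given side by side and not as evidence for one another. Marco was 5.61, adjusted p = 2.01e-10, in inflamed mucosa and 0.11, adjusted p = 0.723, in dysplasia relative to normal. Vip was 2.60 and -0.34, and Muc2 -4.20 and -0.66. For Ube2c the values were -1.29 and 0.10, for Il6 6.67 and 1.87, and for Cldn2 -4.76 and -0.88. In these the inflamed group was the further from normal. Sptssb (0.21 and 3.95, adjusted p = 0.000667) and Wif1 (-0.20 and 4.22, adjusted p = 0.0454) were close to normal in inflamed mucosa and higher in dysplasia. S100a8 (7.89, adjusted p = 0.000192, and 5.70, adjusted p = 0.0175) was above normal in both.

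**Figure D5:**
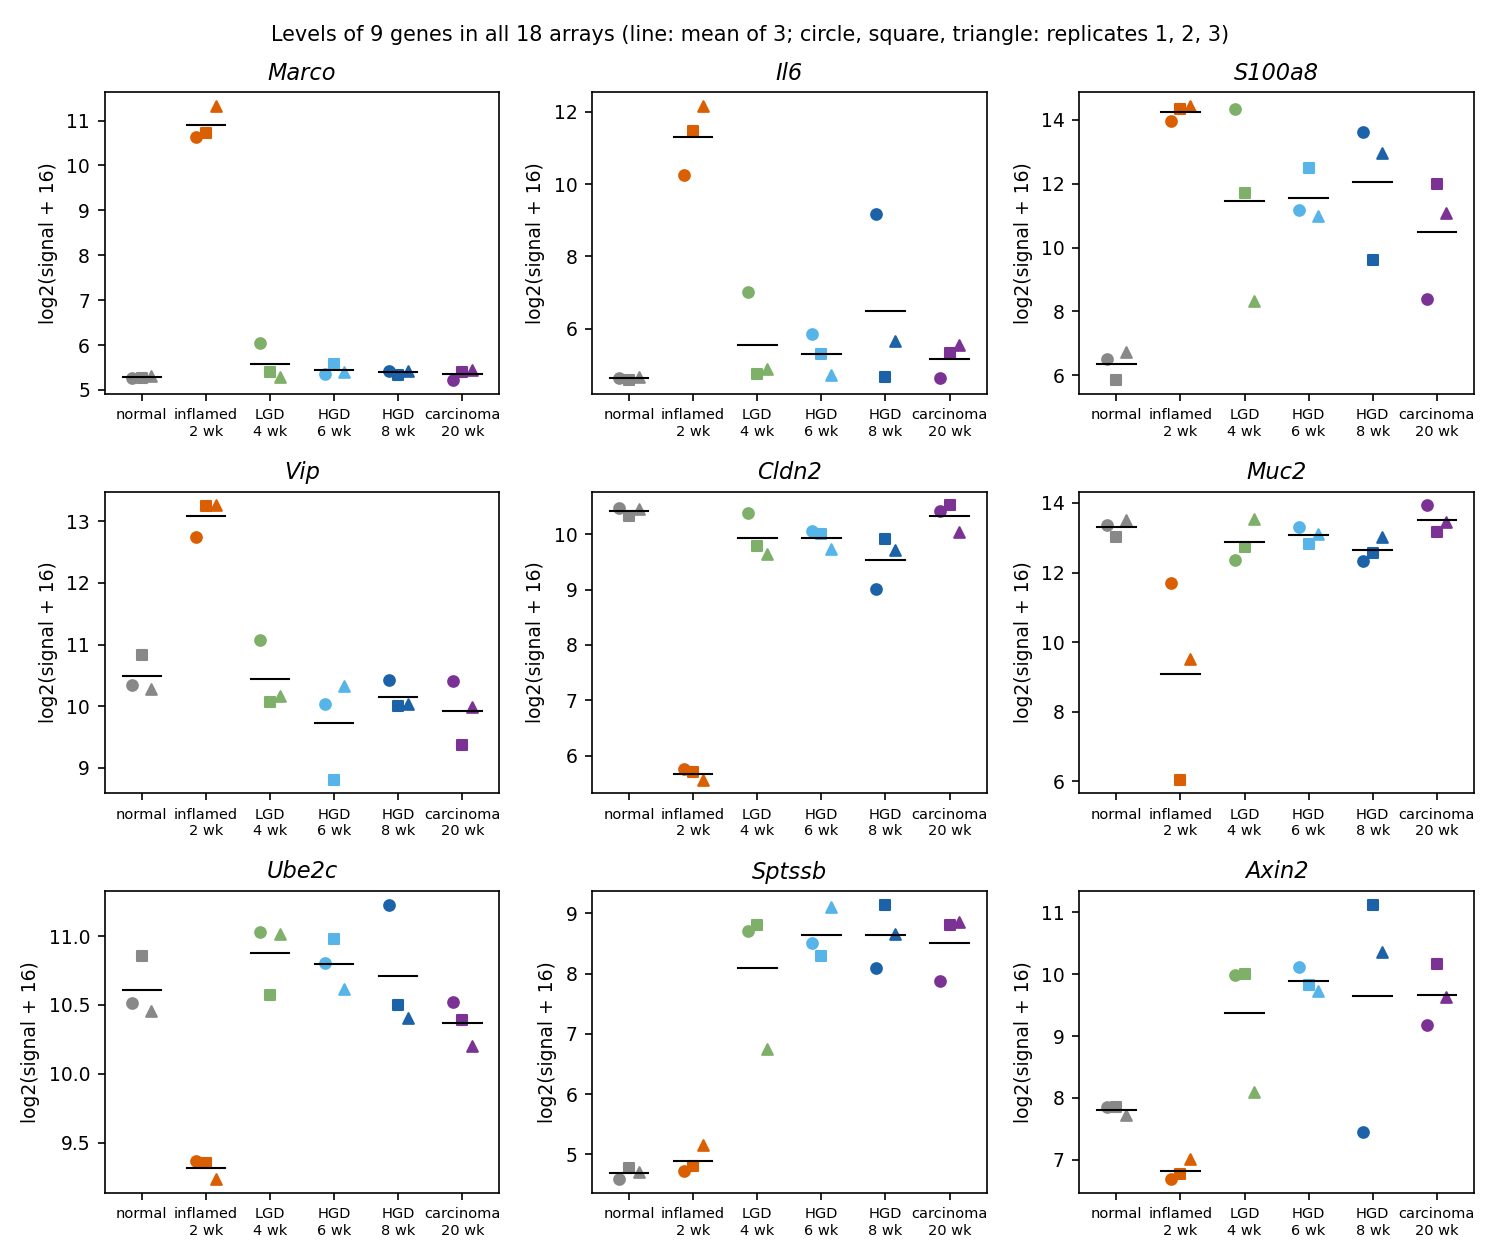
Level of 9 genes in all 18 arrays, as log2(signal + 16), by group from normal mucosa to carcinoma at 20 weeks, with a point per array. Marco and Vip are high in the 3 inflamed arrays alone of the 6 compared, Sptssb in the 3 dysplasia arrays, and Axin2 in dysplasia replicates 2 and 3 but not in the array labelled replicate 1.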

How the data were processed

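Colon tissue was hybridised to Affymetrix whole-genome mouse arrays, 3 per group, per the labels. The deposited values are probe set intensities on a linear scale, and MAS5 is named in the submitters' processing notes, with its version, role and settings not given in the sources used here. The table holds 45101 probe sets. After 64 controls were set aside, 34945 had 1 gene symbol in the platform annotation, 932 several and 9160 none. From the deposited intensities log2(signal + 16) was computed, without further normalisation. Probe sets above the table median (56.6) in at least 3 arrays were kept (21653), and each gene was read from 1 probe set, giving 12877 genes, of which 3287 rest on a probe set marked as able to match other transcripts. All 6 groups entered a limma fit (limma 3.58.1, R 4.3.3; intensity trend; 12 residual and a median of 2.51 prior degrees of freedom). The script was tested on simulated data. The p-values rest on a spread between samples pooled over all 18 arrays, not on that of the 6 compared arrays alone. The 3 arrays per group limit the precision, so that a permutation test of a single gene could not go below 0.1. Named genes were the 15 largest called changes in each direction, up to 4 called genes per list and direction, and set marker genes. Other list members named were chosen after their values were seen. The comparison and the lists were chosen with earlier results of these data known. Deviations of same-numbered replicates from their group means correlated at r of 0.0919, 0.272 and -0.144. These 3 values cannot exclude a pairing by number, which the labels do not state, and the main fit used none. Promoter sequences are RefSeq's on GRCm38.p6, matched by symbol.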

Additional observations from a re-analysis of the deposited data

How the results depend on the processing

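Counts of called genes stayed within 1.5 times of 2695 higher and 2370 lower under the offsets 1 and 64, no filter, a filter on 6 arrays, quantile normalisation, equal array medians, the mean of a gene's probe sets, marked probe sets left out, no intensity trend and array weights (highest, 4004 and 3355, with dysplasia replicate 3 at a weight of 5.63). A fit of only the 6 arrays, which estimates the spread from those arrays alone, called 1382 higher and 1543 lower, with 5 Wnt, 9 goblet cell and 3 lower hypoxia genes. Leaving out 1 array gave 1937 to 3077 higher and 1831 to 2455 lower. With a replicate block the fit called 2573 and 2261. Whether the numbers pair the samples is not known. Of the 187 named genes that passed, 112 stayed past the threshold in every alternative. Over the named genes, 955 of the values without 1 array kept their direction and side of the threshold, 183 lost the call and 2 gained it. Under the other alternatives 2150 kept both, 88 lost the call, 3 gained it and 1 turned. That was Lrig1, at 0.21 and without passing with marked probe sets left out, where another probe set stands for the gene. Dim genes near the table median are limited by signal over background.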

Other observations

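Levels relative to normal mucosa varied among further genes of the model. Wfdc18, a whey acidic protein of the secreted antiprotease family, measured 12.93, 10.44 and 11.77 in the inflamed mucosa and 13.11, 13.86 and 13.75 in the dysplasia, against a normal mean of 9.82, and was higher in dysplasia by 1.86 ± 0.54 (limma adjusted p = 0.0141). It was above the normal mean in all 6 arrays, and differed by 1.23 without inflamed replicate 2, where it was not called (limma adjusted p = 0.0745). Slpi, the secretory leukocyte protease inhibitor, measured 13.49, 13.53 and 13.29 in the inflamed mucosa and 13.00, 11.55 and 13.00 in the dysplasia against 12.14 in normal mucosa, and its difference of -0.92 ± 0.35 passed narrowly (limma adjusted p = 0.0492), and in 2 of the 6 fits without 1 array, those without dysplasia replicate 3 or the array labelled dysplasia replicate 1. It was -0.44 without dysplasia replicate 2, the array that lay below the normal mean (limma adjusted p = 0.25). The interferon-inducible membrane proteins Ifitm1 and Ifitm3 measured 13.85, 13.85 and 14.00 in the inflamed mucosa and 12.87, 13.35 and 12.92 in the dysplasia, and 13.72, 13.65 and 13.75 in the inflamed mucosa and 12.91, 13.56 and 13.32 in the dysplasia, with normal means of 10.59 and 11.81, and neither passed between the groups. Igfbp5, which binds insulin-like growth factors, was lower in dysplasia, at -1.30 ± 0.29, though another probe set differed by -0.40, and its normal mean of 10.61 was below all 6 arrays.

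Secretory phospholipase Pla2g2a, an antibacterial protein of Paneth and goblet cells, varied within both groups. It measured 12.07, 5.89 and 9.94 in the inflamed mucosa and 13.47, 14.49 and 11.87 in the dysplasia, a difference of 3.98 ± 1.46 (limma adjusted p = 0.0428) that was called without inflamed replicate 1 or dysplasia replicate 3 and in none of the other 4 fits without 1 array. Without inflamed replicate 2 it was 2.27 (limma adjusted p = 0.213). Mcpt2, a mucosal mast cell protease, measured 6.82, 7.53 and 7.12 in the inflamed mucosa and 8.14, 8.71 and 12.21 in the dysplasia and was highest in dysplasia replicate 3. It did not pass (2.53 ± 1.08, limma adjusted p = 0.078), but did without the array labelled dysplasia replicate 1 (3.31, limma adjusted p = 0.0333). Tnfrsf11b, the decoy receptor osteoprotegerin, measured 6.20, 6.13 and 6.20 in the inflamed mucosa and 6.26, 7.93 and 8.94 in the dysplasia against a normal mean of 4.71. It was above normal in all 6 arrays and highest in dysplasia replicates 2 and 3, and the difference of 1.53 ± 0.80 did not pass (limma adjusted p = 0.145), but did without the array labelled dysplasia replicate 1 (2.26, limma adjusted p = 0.0381). Of 4 tuft cell genes 2 were lower, Dclk1 and Alox5 (-1.09 ± 0.25), and Avil, also a tuft cell gene, measured 6.91, 6.93 and 6.84 in the inflamed mucosa and 6.66, 9.10 and 8.53 in the dysplasia without passing (limma adjusted p = 0.0732). Without the array labelled dysplasia replicate 1 Avil was higher (1.92, limma adjusted p = 0.00141).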
